A study of Mus musculus with 30 samples.

Results

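Cell cycle genes were followed through the first week of brown fat cell differentiation as 42 listed genes out of 23109 in the RNA tables, split by the phase in which they act. The set holds 16 genes of the G1/S step, 21 of G2 and mitosis (G2/M), 3 D-type cyclins and 2 inhibitors of cyclin-dependent kinases (CDKs). They were picked by name for their known roles, with earlier results of these data known, and each gene is represented by its most read RefSeq transcript. All 42 passed the filter on low values (in 2 or more libraries an RPKM, the read count scaled to transcript length and library size, of 1 or more), which left 12581 genes for testing.

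The RNA came from brown preadipocytes of newborn C57BL/6J pups with a loxP-flanked glucocorticoid receptor gene, immortalised with SV40 T antigen. A retrovirus with Cre recombinase made the receptor-deleted line (Cre) and an empty one the control line (Vec), so the floxed gene and the T antigen are common to both. Confluent cells, plated 4 days earlier, were then given a mix for 4 hours that held 0.125 mM indomethacin, dexamethasone at 2 µg/ml (a synthetic glucocorticoid), 0.5 mM IBMX (which raises cAMP by blocking phosphodiesterases), the thyroid hormone T3 at 1 nM and insulin at 0.02 µM. RNA was sampled before the mix (D0), 4 hours into it (4h), on day 2 (D2) and on day 7 (D7), with 1 library for each of the 2 genotypes at each of the 4 times. The sources used here do not give the media after 4 hours or say whether the lines are clones, and with no 4h library without the mix, the mix, elapsed time and handling cannot be told apart.

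Cells commit to division in G1, where D-type cyclins with CDK4 or CDK6 phosphorylate the retinoblastoma (Rb) protein and its relatives p107 and p130. This frees E2F factors, which switch on the G1/S genes for making nucleotides and copying DNA. In resting cells p130 sits in the DREAM complex, which represses late genes through a promoter element named CHR, and in cycling cells B-MYB and FOXM1 switch these G2/M genes on. SV40 T antigen binds the Rb family and p53 and so lets cells divide past the signals that would stop them, whereas preadipocytes normally leave the cycle as they mature.

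Depth ran between 7.71 M and 28.9 M reads per library, with the lowest values at 4h (7.71 M in Cre and 12.3 M in Vec). Nr3c1, the receptor gene, was lower in Cre at each time, with an RPKM of 4.81, 4.04, 8.07 and 6.67 in Cre at D0, 4h, D2 and D7, against 24.3, 12.9, 21.3 and 32.1 in Vec. All 5 preadipocyte and fibroblast markers were present in every library. Of the 5 brown fat markers, none reached an RPKM of 1 at D0 or 4h, 1 did at D2 and 3 at D7, so these markers were near 0 at the first 2 times. Summed over 4 macrophage markers the RPKM was at most 1.55 in any library, and over 5 endothelial markers at most 1.71. Each group is a single library, and nothing in the labels says that libraries came from separate cultures. Each p-value below therefore judges a change only against the departure of these 8 libraries from an additive model of time and genotype.

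**Figure D1:**
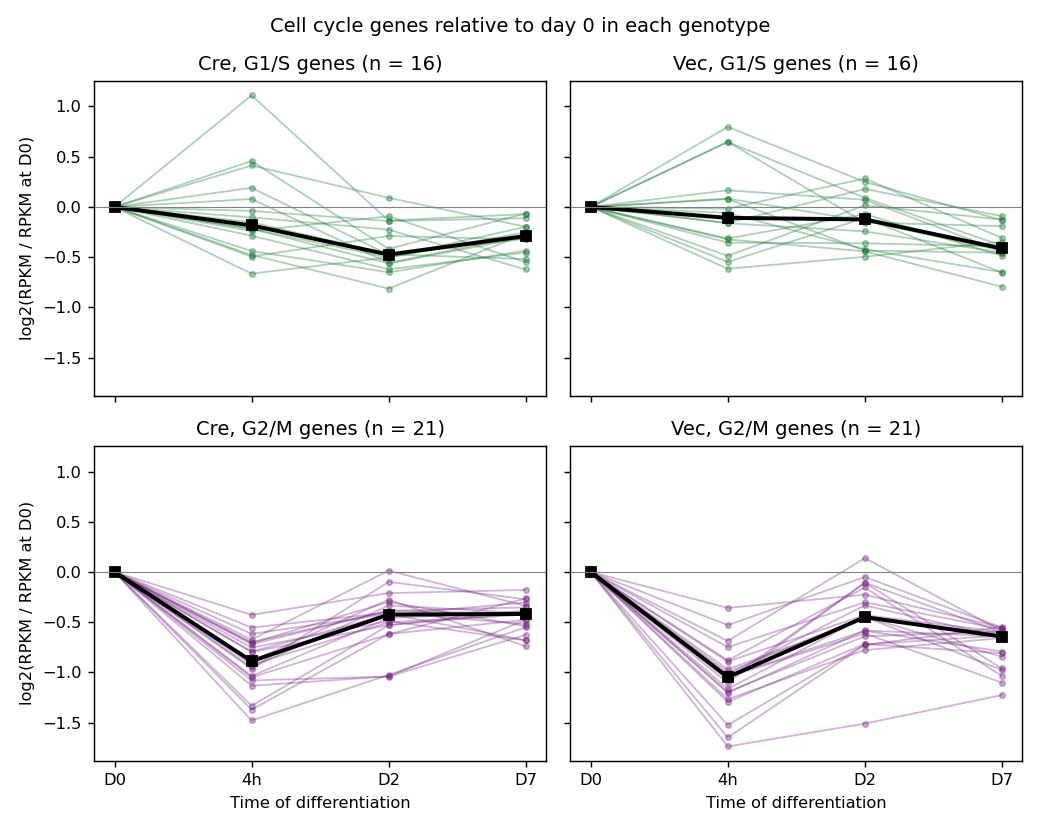
Change of each G1/S gene (16 genes, upper panels) and G2/M gene (21 genes, lower panels) relative to its own D0 value, as log2 of the RPKM ratio, against time in Cre (left) and Vec (right). RPKM is as deposited, without further scaling of libraries. Thin lines are genes and black squares are group medians; at 4h the G2/M median lies at -0.89 in Cre and -1.05 in Vec, while the G1/S medians lie at -0.18 and -0.11.

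Within 4 hours of induction the G2/M genes fell almost as a block, while the G1/S genes stayed spread around their starting level. Over both genotypes 20 of 21 G2/M genes fell and none rose, against 13.1% of all genes that fell and 12.2% that rose. Of the 16 G1/S genes 3 rose and none fell. No G2/M gene counted as risen at an unadjusted p below 0.05, by DESeq2 or by limma either. The median fitted log2 change was -0.87 for G2/M genes and -0.00 for G1/S genes, with -0.00 for all genes tested. All 21 G2/M genes lay below their own D0 value in both genotypes, at a median of 54.1% of it in Cre and 48.4% in Vec. These shares are of the deposited RPKM, without further scaling of libraries. In RNA from a whole culture, fewer cells in a phase and less RNA per cell cannot be told apart.

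The 3 largest falls of the G2/M group were in Kif23, Bub1b and Mki67. Kif23, a kinesin of the central spindle that is needed for cytokinesis, had an RPKM of 18.3, 6.55, 8.97 and 12.5 in Cre at D0, 4h, D2 and D7, against 18.3, 5.48, 6.41 and 7.81 in Vec. Its lowest value came at 4h in both genotypes, and it fell by 1.51 on the log2 scale (SE 0.19, adjusted p = 0.00805). Bub1b, which encodes the checkpoint kinase-like protein BubR1, had an RPKM of 23.4, 9.30, 16.2 and 17.6 in Cre at the 4 times, against 22.8, 7.29, 13.8 and 15.6 in Vec. It fell by 1.39 at 4h (SE 0.11, adjusted p = 0.0063). Mki67, the proliferation antigen that coats mitotic chromosomes, had 47.9, 18.5, 31.2 and 34.5 RPKM in Cre, against 48.4, 16.8, 29.4 and 31.2 RPKM in Vec. It fell by 1.35 at 4h (SE 0.12, adjusted p = 0.0063). For these 3 genes the 2 values at 4h were the lowest of their genotype, and no 4h value reached any D0 value.

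Regulators of mitosis followed the same course with smaller changes. Cdc20, the activator of the anaphase-promoting complex, had 37.6, 17.2, 18.3 and 27.1 RPKM in Cre, against 33.2, 13.8, 19.4 and 21.1 RPKM in Vec, and fell by 1.10 at 4h (SE 0.13, adjusted p = 0.00735). Plk1, the polo kinase of mitotic entry and exit, had 22.1, 10.5, 10.8 and 14.4 RPKM in Cre, against 20.6, 8.40, 12.5 and 11.8 RPKM in Vec, and fell by 1.09. Foxm1, itself a factor that activates G2/M genes, had 30.2, 14.6, 19.7 and 25.2 RPKM in Cre, against 28.0, 12.2, 18.0 and 18.6 RPKM in Vec, and fell by 1.02. In each of the 3 the D0 libraries were the highest and the 4h libraries the lowest in both genotypes. The centromere genes Cenpf, Cenpa (the centromeric histone) and Cenpe (a kinetochore motor) fell by 1.02, 0.82 and 0.80. The spindle motors Kif20a and Kif11 fell by 0.95 and 0.87, the chromosomal passenger genes Aurkb and Birc5 by 0.92 and 0.77, and the checkpoint kinase gene Bub1 by 0.90. Adjusted p for these 8 genes lay between 0.00708 and 0.0198.

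The remaining 7 G2/M genes include the mitotic cyclins and had fitted changes between -0.78 and -0.29. Ccnb1 had 12.5, 8.12, 9.33 and 7.78 RPKM in Cre at D0, 4h, D2 and D7, against 12.4, 6.73, 11.1 and 6.03 RPKM in Vec, so that its D7 values were below its 4h values. Ccna2 had 45.6, 28.1, 34.9 and 35.7 RPKM in Cre, against 44.1, 26.2, 35.7 and 29.7 RPKM in Vec, with 4h lowest in both. Ccnb2, Ccnb1 and Ccna2, the B-type and A-type cyclins, fell by 0.78, 0.65 and 0.63, Ube2c, the ubiquitin-conjugating enzyme of the anaphase-promoting complex, by 0.71, and Top2a, which untangles sister DNA, by 0.58. Their adjusted p lay between 0.0111 and 0.0368. Aurka, the kinase of spindle poles, had 24.0, 16.3, 18.1 and 16.7 RPKM in Cre, against 21.7, 15.0, 20.9 and 14.8 RPKM in Vec, and only just passed the test (-0.44, SE 0.12, adjusted p = 0.0494). Cdk1, the mitotic kinase itself, had 29.8, 22.2, 25.8 and 26.3 RPKM in Cre, against 29.8, 23.2, 25.5 and 20.3 RPKM in Vec. Its 4h value was 74.4% of D0 in Cre and 78.1% in Vec, and its fitted change of -0.29 (SE 0.15, adjusted p = 0.19) did not pass. Reads of Ccnb1 may be shared with processed copies, and the sources used here do not say how reads with several matches were placed.

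**Figure D2:**
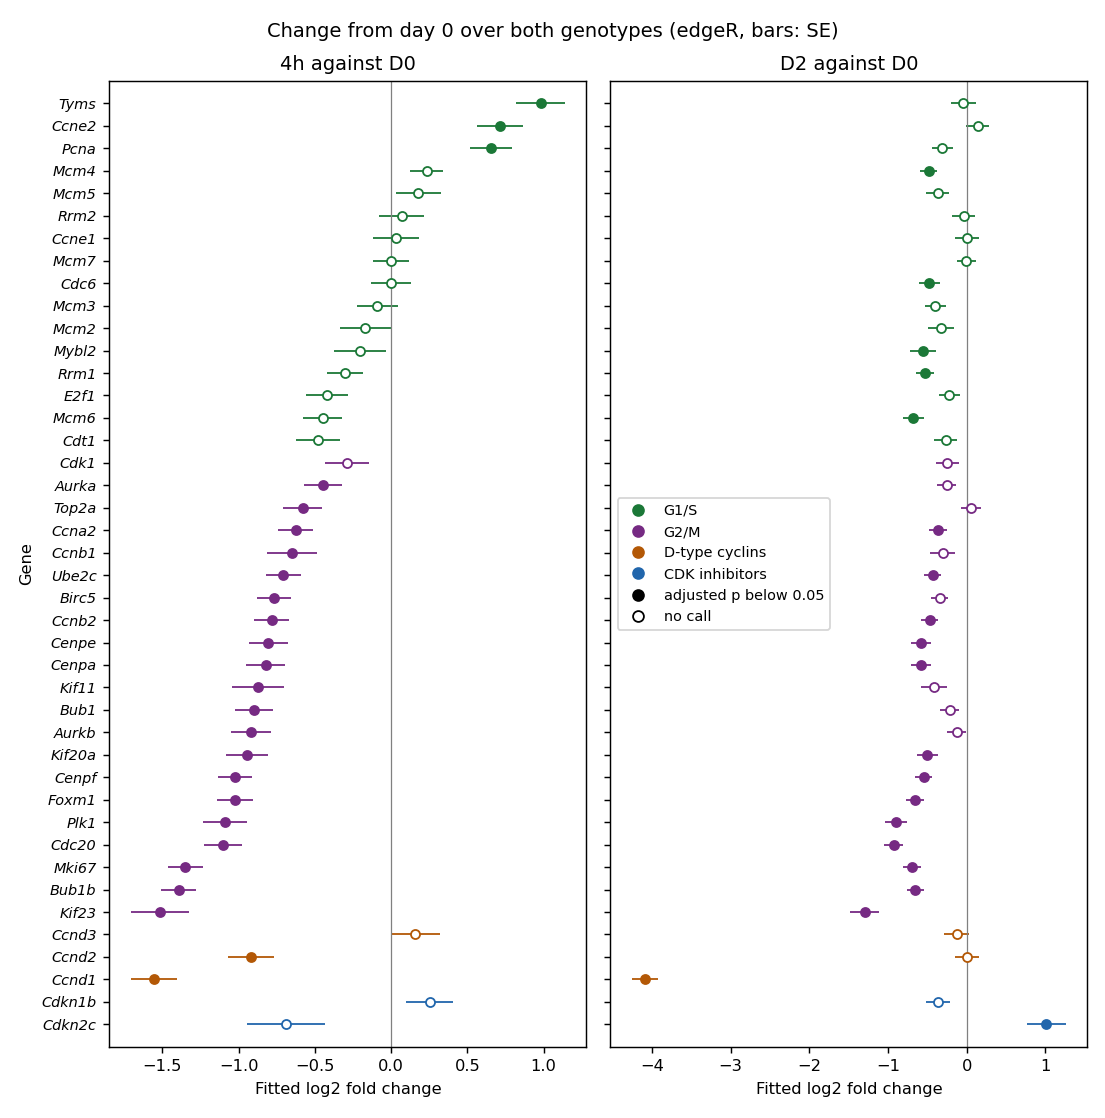
Fitted log2 fold change of the 42 genes (points, bars are the SE; x axis in log2 units, different range in the 2 panels) at 4h against D0 (left) and D2 against D0 (right), ordered by the 4h change within each group. Filled points passed the test: 20 of 21 G2/M genes lie left of 0 at 4h, with Kif23 at -1.51, and 3 G1/S genes lie right of it, with Tyms at 0.98.

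Because the G2/M genes moved together, their promoters were read for the elements through which such genes are known to be controlled. RefSeq promoter windows of assembly GRCm38.p6, 250 bases before to 50 after the start, were found for 34 of the 42 genes; Mcm4, Ccne2, Ccna2, Aurkb, Foxm1, Kif20a, Ccnd1 and Ccnd2 are not included. The windows of the 3 G2/M genes with the largest falls, Kif23 at chr9:61946750-61947049 (minus strand), Bub1b at chr2:118597961-118598260 (plus strand) and Mki67 at chr7:135716330-135716629 (minus strand), are shown beside those of 2 G1/S genes. Pcna at chr2:132253131-132253430 (minus strand) is a G1/S gene that rose at 4h, and Mcm5 at chr8:75109259-75109558 (plus strand) holds E2F-type letters. Coordinates are those of GRCm38.p6 and not of the RNA tables, for which the submitters' notes name mm9. All run 5′ to 3′ on the gene's strand. Capitals mark the CHR letters TTTGAA or TTCGAA, the E2F-type letters TTTCGCGC, TTTGGCGC or TTTCCCGC, and the CCAAT box, each on either strand, with overlapping matches merged.
Kif23: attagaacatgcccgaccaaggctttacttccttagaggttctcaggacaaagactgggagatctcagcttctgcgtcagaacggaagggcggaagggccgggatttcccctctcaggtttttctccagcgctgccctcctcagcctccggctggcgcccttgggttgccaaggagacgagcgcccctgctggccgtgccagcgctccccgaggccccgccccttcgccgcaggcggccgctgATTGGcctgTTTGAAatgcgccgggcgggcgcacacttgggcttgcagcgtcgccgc
Bub1b: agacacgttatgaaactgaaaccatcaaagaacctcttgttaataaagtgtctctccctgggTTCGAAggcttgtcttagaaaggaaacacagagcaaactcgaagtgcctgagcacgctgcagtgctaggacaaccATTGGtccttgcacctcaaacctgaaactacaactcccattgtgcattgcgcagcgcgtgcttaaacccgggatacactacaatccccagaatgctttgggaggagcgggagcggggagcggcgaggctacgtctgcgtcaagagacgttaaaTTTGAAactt
Mki67: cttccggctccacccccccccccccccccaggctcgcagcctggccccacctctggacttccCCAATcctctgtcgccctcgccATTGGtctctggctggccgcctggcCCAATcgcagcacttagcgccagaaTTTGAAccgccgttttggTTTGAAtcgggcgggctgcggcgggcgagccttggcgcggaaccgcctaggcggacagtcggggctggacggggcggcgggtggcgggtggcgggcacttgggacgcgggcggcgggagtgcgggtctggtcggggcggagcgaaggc
Pcna: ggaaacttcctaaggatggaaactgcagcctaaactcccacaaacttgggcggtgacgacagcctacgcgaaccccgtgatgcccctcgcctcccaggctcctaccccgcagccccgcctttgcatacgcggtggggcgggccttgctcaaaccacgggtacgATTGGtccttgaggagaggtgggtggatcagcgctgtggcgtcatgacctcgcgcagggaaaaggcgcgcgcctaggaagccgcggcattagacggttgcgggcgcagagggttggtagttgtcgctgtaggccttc
Mcm5: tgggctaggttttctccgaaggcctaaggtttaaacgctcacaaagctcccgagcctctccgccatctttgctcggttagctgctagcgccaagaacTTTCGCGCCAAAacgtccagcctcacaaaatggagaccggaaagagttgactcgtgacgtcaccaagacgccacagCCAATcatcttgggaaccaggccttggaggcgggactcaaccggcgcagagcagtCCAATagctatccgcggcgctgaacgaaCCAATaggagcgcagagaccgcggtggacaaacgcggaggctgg

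CHR letters were found in the windows of 14 of 17 G2/M genes and 2 of 14 G1/S genes, and in 19.2% of all 32851 promoter windows. E2F-type letters were found in 1 of 17 G2/M genes, Cdk1, and in 6 of 14 G1/S genes, Mcm3, Mcm5, Mcm6, Mcm7, Cdc6 and Cdt1, against 1.84% of all windows. Windows follow RefSeq starts, which may not be the starts used in these cells. The window of E2f1 appears to lie in coding sequence, so its lack of letters does not describe the promoter upstream. A CCAAT box stood in 16 of 17 G2/M genes, 8 of 14 G1/S genes and 37.4% of all windows. Of the other lists, CHR letters were in 17 of 23 other G2/M genes and 4 of 19 other G1/S genes, and E2F-type letters were in 1 of 23 and 7 of 19. A CCAAT box was in 16 of 23 other G2/M genes (69.6%) and 13 of 19 other G1/S genes (68.4%). Among the CDK inhibitors, pocket proteins, CDKs and E2F factors, E2F-type letters were in 6 of 13 genes. In the G2/M genes 13 of 21 CHR matches began within 50 bases of the start site, with a median position of -19. The TTTGAA of Kif23 began at position 3, next to a CCAAT box at -7, on a scale where negative positions lie before the start.

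Within the listed G2/M group too few genes lacked a fall or the letters for a comparison. Of the 14 G2/M genes with CHR letters 13 fell at 4h, with a median of -0.88, and Cdk1 did not pass. The 3 without them, Birc5, Ccnb1 and Cenpe, all fell, with a median of -0.77. Of the other G2/M genes, 17 held CHR letters and 14 of these fell at 4h, with a median of -0.86. The 6 without them had a like median of -0.87, and 5 fell. The difference was not tested. The G1/S genes Mcm2 and Mcm7 hold CHR letters and had fitted changes of -0.17 and -0.00. Pcna and Tyms, which rose, hold neither CHR nor E2F-type letters in these windows, which says only that these exact spellings are not there.

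**Figure D3:**
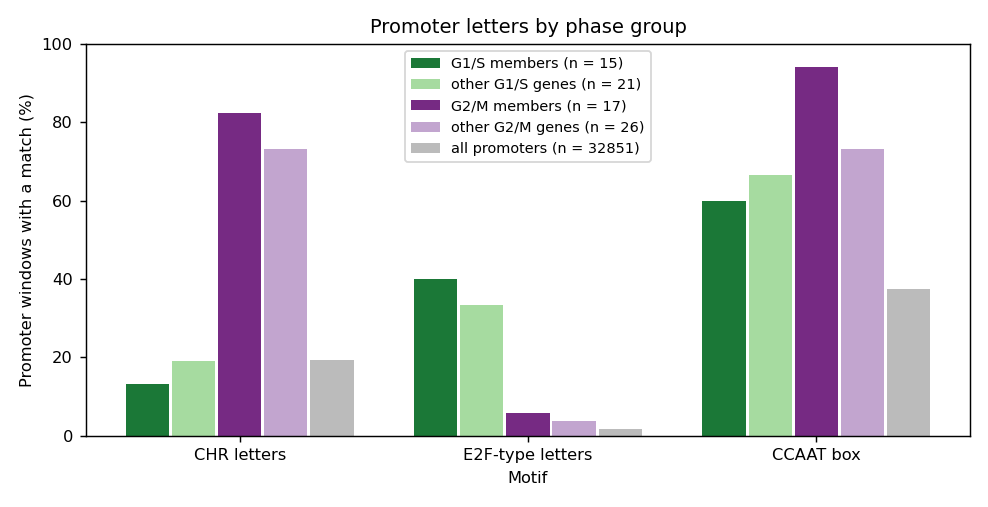
Share of RefSeq promoter windows (y axis, percent) with at least 1 match to CHR letters, E2F-type letters or a CCAAT box, for the listed G1/S genes, other G1/S genes, the listed G2/M genes, other G2/M genes and all 32851 promoters. CHR letters are in 82.4% of windows of the listed G2/M genes and E2F-type letters in 40.0% of those of the listed G1/S genes, against 19.2% and 1.84% of all promoters; genes with 2 starts give 2 windows.

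The 3 of 16 G1/S genes that rose at 4h act at the start of DNA synthesis. Among all genes 12.2% rose, so the count of 3 is near the share over all genes. Tyms, which encodes thymidylate synthase of the nucleotide supply, had an RPKM of 9.97, 21.5, 9.08 and 9.49 in Cre at D0, 4h, D2 and D7, against 9.90, 15.5, 10.5 and 7.58 in Vec. The 4h library was the highest of the 4 in each genotype, and the gene rose by 0.98 (SE 0.16, adjusted p = 0.0137). Ccne2, a cyclin E that activates CDK2, had 9.25, 12.3, 9.85 and 8.07 RPKM in Cre, against 10.1, 17.6, 12.0 and 9.24 RPKM in Vec, and rose by 0.71 (SE 0.15, adjusted p = 0.0235). Pcna, the sliding clamp of DNA polymerases, had 62.6, 86.0, 46.9 and 59.9 RPKM in Cre, against 66.3, 103.9, 59.5 and 58.0 RPKM in Vec, and rose by 0.65 (SE 0.14, adjusted p = 0.0232). For all 3 the 4h value was the highest of the 4 times in both genotypes. A pair of nearly identical transcripts of Tyms, the chosen one a non-coding variant, gave counts within a few reads of each other, and reads of Pcna and Tyms may also be shared with processed copies.

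The other 13 G1/S genes did not pass the test at 4h. The replicative helicase genes Mcm2, Mcm3, Mcm4, Mcm5, Mcm6 and Mcm7 had fitted changes of -0.17, -0.09, 0.23, 0.18, -0.45 and -0.00. Cdc6 and Cdt1, which load the helicase, had changes of -0.00 and -0.48, the ribonucleotide reductase subunits Rrm1 and Rrm2 had -0.30 and 0.07, and Ccne1 had 0.03. E2f1, an activator of G1/S genes, had -0.42 and Mybl2, the gene of B-MYB, had -0.20. Cdt1, the lowest of the 13, had 32.3, 20.4, 22.8 and 28.1 RPKM in Cre, against 30.8, 22.0, 31.1 and 28.2 RPKM in Vec, with adjusted p = 0.0591. By edgeR at an unadjusted p below 0.05, 4 G1/S genes would count as lower at 4h, and DESeq2 called 1 and limma 2 G1/S genes as lower.

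Levels of the genes that did not pass ran in different directions. Mcm4 had 62.8, 71.7, 45.2 and 50.5 RPKM in Cre at D0, 4h, D2 and D7, against 60.7, 64.1, 44.9 and 44.3 RPKM in Vec, with 4h the highest time in both genotypes. Rrm1, the large subunit that makes deoxynucleotides, had 52.4, 38.7, 33.4 and 38.8 RPKM in Cre, against 53.4, 41.7, 41.5 and 40.7 RPKM in Vec, with D0 the highest time in both. E2f1 had 31.2, 22.2, 25.5 and 24.9 RPKM in Cre, against 30.3, 20.7, 28.1 and 19.3 RPKM in Vec, with 4h lowest in Cre and D7 lowest in Vec. The G1/S values at 4h thus ran between 63.1% (Cdt1) and 216% (Tyms) of D0 in Cre, and between 65.3% (Mcm6) and 174% (Ccne2) in Vec.

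The difference in behaviour between the groups was also seen within each library. On the log2(RPKM + 1) scale the G2/M median level lay below the G1/S median level by 0.57 in Cre and 0.53 in Vec at D0, by 1.12 and 1.47 at 4h, by 0.62 and 0.87 at D2, and by 0.73 and 0.77 at D7. The gap was widest at 4h in both genotypes. Summed over the group, G2/M genes reached 54.6% of their D0 RPKM in Cre and 49.9% in Vec at 4h, and G1/S genes 94.0% and 96.2%. Time of lowest level split the groups too: 20 of 21 G2/M genes in Cre and 17 of 21 in Vec were lowest at 4h, against 2 of 16 and 3 of 16 G1/S genes. These counts use the deposited RPKM without further scaling. Its median over all genes tested in Vec was 7.92 at 4h, against 8.75, 9.10 and 8.68 at D0, D2 and D7. In Cre it was 8.62 at 4h, against 8.81, 8.95 and 8.70. The share of all genes lowest at 4h was not computed.

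The 4h calls rested on the libraries at D0 and 4h. The number of G2/M genes that fell was 7 without Cre D0, 0 without Vec D0, 12 without Cre 4h and 0 without Vec 4h, and 19 without any one of the D2 and D7 libraries. The count over all genes dropped with it, to 0 without Vec D0 in each direction and, without Vec 4h, to 56 that rose and 12 that fell. All 21 fitted G2/M changes were below 0 in each of the 8 refits, with medians between -0.93 and -0.77. The 3 G1/S rises were not called without Cre D0, Vec D0 or Vec 4h, and that of Tyms was also lost without Cre 4h. With all libraries kept, the rise of Pcna was lost with limma on log2(RPKM + 0.1).

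Cell cycle genes outside the 42 were read from further lists. Of 28 other G2/M genes, 22 fell at 4h, with a median of -0.85. The largest falls were in Anln (-1.57), a scaffold of the contractile ring, and Ect2 (-1.43), the exchange factor that triggers ring assembly. Of 29 other G1/S genes 4 rose and 4 fell, with a median of -0.04. Among all genes 12.2% rose and 13.1% fell at 4h, so these 2 counts of 4 are near the share over all genes. Cdca7 and Blm, a helicase of DNA repair, rose by 0.83 and 0.76, and Dscc1 (clamp loading) and E2f8 (a repressive E2F) fell by 1.32 and 0.81. Of 17 tested CDK inhibitors, pocket proteins, CDKs and E2F factors, Myc, a factor that promotes entry into the cycle, rose by 1.77 and 4 fell, among them Rb1 by 1.06 and the CDK inhibitor gene Cdkn1a by 0.88. Myc had 13.7, 26.0, 42.7 and 17.4 RPKM in Cre at D0, 4h, D2 and D7, against 13.7, 71.8, 92.9 and 22.9 RPKM in Vec, so its 4h and D2 values were lower in Cre.

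On day 2 genes of both groups were below D0, and the group medians were closer together than at 4h. Against D0, 13 of 21 G2/M genes and 5 of 16 G1/S genes were lower and none of either group was higher, against 21% of all genes that fell and 17.7% that rose. The median log2 change was -0.47 for G2/M, -0.32 for G1/S and 0.02 for all genes. The G1/S median rested largely on 1 library, since it was -0.08 without Cre D2, and on the log2 RPKM ratio it was -0.47 in Cre and -0.12 in Vec. In the same libraries the 5 adipocyte markers summed to 1871 RPKM in Cre D2 and 2079 in Vec D2, against 44.3 in Cre D0 and 42.3 in Vec D0, and their part in these changes was not tested. At an unadjusted p below 0.05 and by DESeq2 and limma, still none of these genes rose. Comparisons of 4h, D2 and D7 with D0 share the same 2 D0 libraries.

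Kif23 again had the largest fitted fall of the G2/M genes at D2, by 1.30 (SE 0.18, adjusted p = 0.00544), to 49.1% of its D0 level in Cre and 35.1% in Vec. Cdc20, Plk1, Mki67, Foxm1 and Bub1b fell by 0.93, 0.90, 0.70, 0.66 and 0.65, and Cenpa, Cenpe, Cenpf, Kif20a, Ccnb2, Ube2c and Ccna2 by between 0.37 and 0.58. Top2a was close to its starting level, with 58.9 RPKM at D2 and 58.4 at D0 in Cre, against 63.9 and 58.1 in Vec (0.05, SE 0.13, adjusted p = 0.774). The G1/S genes that fell were Mcm6 (-0.68), Mybl2 (-0.55), Rrm1 (-0.53), Mcm4 (-0.48) and Cdc6 (-0.47). Mcm6, the helicase subunit with the highest level at D0, had 88.8, 63.8, 50.6 and 73.9 RPKM in Cre at D0, 4h, D2 and D7, against 85.8, 56.1, 60.9 and 67.6 RPKM in Vec. Its D2 value was the lowest of the course in Cre, while its 4h value was the lowest in Vec. The median G1/S gene stood at 72.0% of its D0 level in Cre D2 and at 91.8% in Vec D2, and the median G2/M gene at 74.5% and 73.3%. Of the other lists, 15 of 28 G2/M genes fell, Anln by 0.97 and Ndc80 (a kinetochore subunit) by 0.88, while Hjurp, the chaperone of the centromeric histone, rose by 0.54. Of 29 G1/S genes 6 fell, near the 21% of all genes that fell. Dscc1 fell by 1.58 and Uhrf1, which guides maintenance of DNA methylation, by 0.99. Mybl2 and Cdc6 were low throughout, between 2.08 and 5.06 RPKM.

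Against 4h, some genes of each group moved, in opposite directions. Of 21 G2/M genes 7 rose and none fell, and of 16 G1/S genes 6 fell and none rose, against 15.4% of all genes that rose and 18% that fell. The medians were 0.35 and -0.27, with 0.00 for all genes. Of the G1/S genes 9 of 16 were lower in both genotypes, with median log2 RPKM ratios of -0.32 in Cre and -0.09 in Vec, and the fitted median was -0.13 without Cre D2. The G2/M genes that rose were Aurkb (0.79), Bub1b (0.74), Bub1 (0.68), Mki67 (0.65), Top2a (0.63), Cenpf (0.48) and Birc5 (0.42), with adjusted p between 0.0078 and 0.0345. The 2 counts of 0 stayed 0 at an unadjusted p below 0.05, with DESeq2 and with limma. Aurkb, the kinase of the chromosomal passenger complex, had 17.3, 8.88, 16.2 and 14.4 RPKM in Cre at D0, 4h, D2 and D7, against 16.9, 8.04, 15.7 and 11.1 RPKM in Vec. Its D2 value was thus close to D0 in both genotypes. All 21 G2/M genes had a higher value at D2 than at 4h in both genotypes. The G1/S genes that fell were Tyms (-1.02), Pcna (-0.97), Mcm4 (-0.71), Ccne2 (-0.57), Mcm5 (-0.55) and Cdc6 (-0.47). This comparison and that of 4h with D0 share the 2 libraries at 4h. Of the other lists, 13 of 28 G2/M genes rose, Psrc1, a microtubule-binding protein of the spindle, by 1.06, and 7 of 29 G1/S genes fell, Fen1, a nuclease of Okazaki fragment maturation, by 0.91.

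Leaving out libraries moved these counts. Against D0, the G2/M genes that fell at D2 numbered 8 without Cre D0, 2 without Vec D0, 5 without Cre D2 and 3 without Vec D2. The G1/S genes that fell numbered 0 without Cre D0, Vec D0 or Cre D2, and 1 without Vec D2. Kif23, Cdc20 and Ccnd1 kept their D2 call without any one library. Against 4h, 3 G2/M genes rose without Cre 4h, 0 without Vec 4h and 1 without Vec D2, and the falls of Pcna, Tyms and Ccnd1 were called without any one library. The G1/S genes that fell against 4h numbered 3 without Cre D0, Vec D0, Cre D2 or Vec D2 and 2 without Vec 4h.

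By day 7 the medians of both groups lay below D0. All 21 G2/M genes and all 16 G1/S genes had lower values than at D0 in both genotypes, with fitted medians of -0.45 and -0.27 and 0.01 for all genes. The 5 adipocyte markers summed to 1575 RPKM in Cre D7 and 4350 in Vec D7, against 44.3 in Cre D0 and 42.3 in Vec D0, and their part was not tested. Of the G2/M genes 3 passed the test, Cenpe (-0.79, SE 0.13, adjusted p = 0.0271), Bub1 (-0.75, SE 0.12, adjusted p = 0.0277) and Ccnb1 (-0.75, SE 0.16, adjusted p = 0.0478), against 2.42% of all genes that fell and 5.68% that rose. Cenpe had 17.5, 10.4, 12.5 and 10.9 RPKM in Cre at D0, 4h, D2 and D7, against 17.1, 8.30, 11.2 and 7.99 RPKM in Vec. Bub1 had 10.0, 5.42, 8.28 and 6.00 RPKM in Cre, against 9.49, 4.42, 8.82 and 4.88 RPKM in Vec. Both were lower at D7 than at D0 and D2 in both genotypes. None of the 16 G1/S genes was called by edgeR, DESeq2 or limma, and 6 had an unadjusted p below 0.05 by edgeR. DESeq2 called 12 of the 21 G2/M genes. Without Cre D7 the count of G2/M falls was 6, and it was 0 without Cre D0, Vec D0, Cre 4h, Vec 4h or Vec D7. Between D2 and D7 the fitted medians were 0.01 for G2/M and 0.04 for G1/S, beside 0.04 for all genes, with different signs in the 2 genotypes for G1/S, a difference that was not tested. The median log2 RPKM ratio of the G1/S genes was 0.16 in Cre and -0.28 in Vec, and that of the G2/M genes was 0.03 in Cre and -0.27 in Vec. Leaving out 1 library, the fitted G1/S median ran between -0.13 without Cre D2 and 0.21 without Vec D7, and the G2/M median between -0.10 without Cre D7 and 0.14 without Vec D7. Mcm6 (0.47) and Cdc20 (0.47) rose and Bub1 fell by 0.53, against 15.4% of all genes that rose and 8.93% that fell. The first 2 calls were lost without any one of the 8 libraries, and that of Bub1 without Cre D0, Vec D0, Vec D2, Cre D7 or Vec D7.

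The D-type cyclins, which couple growth signals to Rb, took 3 different courses. Ccnd1 had an RPKM of 35.1, 11.5, 1.97 and 15.8 in Cre at D0, 4h, D2 and D7, against 36.05, 11.1, 2.28 and 12.2 in Vec. It was highest at D0 and lowest at D2 in both genotypes, where it held 5.61% of its D0 level in Cre and 6.33% in Vec. The fall was 1.56 at 4h (SE 0.15, adjusted p = 0.0068) and 4.09 at D2 (SE 0.17, adjusted p = 0.0019), the largest fitted change among the 42 genes in these comparisons. It rose by 2.85 between D2 and D7 (SE 0.16, adjusted p = 0.00233) and still lay 1.24 below D0 at D7 (adjusted p = 0.0134). Without Vec D0 or Vec 4h the 4h fall, and without Cre D0 or Vec D0 the D7 fall, was not called.

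Ccnd2 fell at 4h and rose again by D2. Its RPKM was 100.3, 57.9, 108 and 74.9 in Cre at D0, 4h, D2 and D7, against 96.2, 40.5, 92.7 and 73.3 in Vec, with the 4h library the lowest in both genotypes. The change was -0.92 at 4h (SE 0.15, adjusted p = 0.0137) and 0.92 between 4h and D2 (SE 0.15, adjusted p = 0.00885). The 4h call was lost without Cre D0, Vec D0 or Vec 4h, and the second without Vec 4h. Ccnd3 stayed between 41.8 and 54.5 RPKM in all 8 libraries and passed no test, with fitted changes between -0.29 and 0.31. At D2 the 3 cyclins thus stood at 1.97, 108 and 42.3 RPKM in Cre and 2.28, 92.7 and 43.6 RPKM in Vec, on a scale per transcript length.

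Of the 2 CDK inhibitors, Cdkn2c rose and Cdkn1b passed the test only between 4h and D2. Cdkn2c, the gene of the inhibitor INK4C, which binds CDK4 and CDK6, had an RPKM of 29.5, 18.1, 58.8 and 50.4 in Cre at D0, 4h, D2 and D7, against 26.9, 14.8, 57.2 and 83.4 in Vec. Its D2 and D7 libraries were above, and its 4h libraries below, both D0 libraries. It rose by 1.01 at D2 (SE 0.25, adjusted p = 0.0244), by 1.33 at D7 (SE 0.25, adjusted p = 0.0371) and by 1.70 between 4h and D2 (SE 0.26, adjusted p = 0.00769). The 4h change of -0.69 did not pass (adjusted p = 0.0987). The D2 rise was not called without Cre D0, Vec D0, Cre D2 or Vec D2, and the D7 rise held only without Cre D7. Cdkn1b, the gene of the inhibitor KIP1, which restrains CDK2, had 28.6, 40.1, 25.0 and 28.2 RPKM in Cre, against 31.6, 27.9, 22.8 and 27.2 RPKM in Vec. Its highest library was Cre 4h, and it fell by 0.62 between 4h and D2 (SE 0.16, adjusted p = 0.0301), a call that was lost without Cre 4h, Cre D2 or Vec D2 and with each limma fit.

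**Figure D4:**
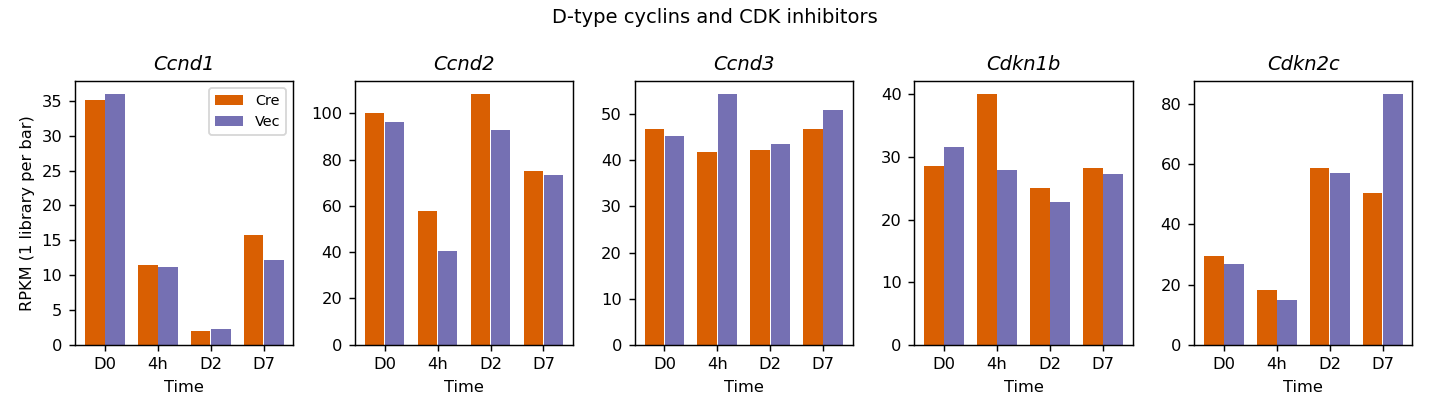
RPKM of 3 D-type cyclins and 2 CDK inhibitors at D0, 4h, D2 and D7 in Cre (left bar) and Vec (right bar); each bar is 1 library, so there is no error bar, and each panel has its own scale from 0. Ccnd1 drops to 1.97 RPKM in Cre and 2.28 in Vec at D2, while Cdkn2c reaches 58.8 and 57.2.

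Differences between receptor-deleted and control cells were under 2-fold for each of the 42 genes at each time. With all times together edgeR called 0 of the 42 genes, and 0 of the 12581 tested (0% rose and 0% fell), between Cre and Vec. The genes not called include the targeted gene Nr3c1, which was lower in Cre at each time. A count of 0 in this test therefore cannot show that the 42 genes are alike in Cre and Vec. At an unadjusted p below 0.05 it gave 3 of the 42 and 1501 of all genes, DESeq2 called none of the 42 and 19 of all genes, and limma none of the 42. At no time did any of the 42 differ 2-fold on the log2(RPKM + 1) scale. Among all genes 0.433% did before the mix, and 4.24%, 4.09% and 4.5% did at 4h, D2 and D7. At such shares few or none of 42 genes would be expected, so the absence does not set these genes apart. The fall of the G2/M genes at 4h was present in both genotypes, with medians of -0.89 in Cre and -1.05 in Vec on the log2 RPKM ratio. These ratios are of the deposited RPKM. The TMM scaling of the fit shifts Vec 4h by 0.12 and Cre 4h by -0.01, and the D0 libraries by -0.04 in Vec and -0.05 in Cre. The sizes of the 2 medians are therefore not compared. Whether the response differed between genotypes could not be tested with 1 library per group. The intervals below are 95% exact binomial ones on the reads, and they cover counting error only.

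Small differences in 1 direction were seen at D7 and D2. At D7 all 21 G2/M genes were higher in Cre, by a median ratio of 1.29, between 1.05 for Birc5 and 1.60 for Kif23, and 19 of the 21 intervals lay above 1. Among all genes with an RPKM of 1 or more in either library, 6675 of 12480 were higher in Cre D7. Intervals were not computed over all genes. On the log2(RPKM + 1) scale the median difference was 0.34 for G2/M genes, 0.09 for G1/S genes and 0.03 for all genes, and with TMM scaling it was 0.29 with 21 of 21 still higher in Cre. Kif23 had 12.5 RPKM in Cre D7 and 7.81 in Vec D7, a ratio of 1.60 (interval 1.42 to 1.80). Of the 28 other G2/M genes, 27 were higher in Cre D7. In the same libraries the summed RPKM of 5 adipocyte markers was 1575 in Cre and 4350 in Vec, that of 5 preadipocyte and fibroblast markers 2474 in Cre and 1317 in Vec, and that of 5 skeletal muscle markers 29.6 in Cre and 14.3 in Vec. Their part in the difference was not tested.

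At D2 the G1/S genes stood apart instead. Of the 16, 14 were lower in Cre, with a median ratio of 0.825, between 0.733 for Cdt1 and 1.01 for Mcm4, and 13 intervals lay below 1. Among all genes 6671 of 11918 were lower in Cre D2. The median difference was -0.26 on the log2(RPKM + 1) scale and -0.23 with TMM scaling, against -0.04 and -0.01 for all genes, and 0.02 for G2/M genes. The shift was smaller in the 29 other G1/S genes. Of these 24 were lower in Cre D2, with a median difference of -0.13, and 20 with TMM scaling, with a median of -0.095. Mcm2, a subunit of the helicase, had 45.1 RPKM in Cre D2 and 60.5 in Vec D2, and Ccne1, the other cyclin E, had 10.5 and 14.3 RPKM. Adipocyte markers summed to 1871 RPKM in Cre D2 and 2079 in Vec D2, and preadipocyte and fibroblast markers to 1388 and 646, and their part was not tested. At 4h 20 of 21 G2/M genes were higher in Cre, with a median difference of 0.23. But 7860 of 11897 among all genes were higher too, with a median of 0.11 in that pair of libraries, and TMM scaling raised Vec 4h by 0.12. With it 16 of 21 were higher, with medians of 0.12 for G2/M genes and 0.01 for all genes. At D0 the medians were 0.03 for G2/M genes and 0.04 for G1/S genes.

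**Figure D5:**
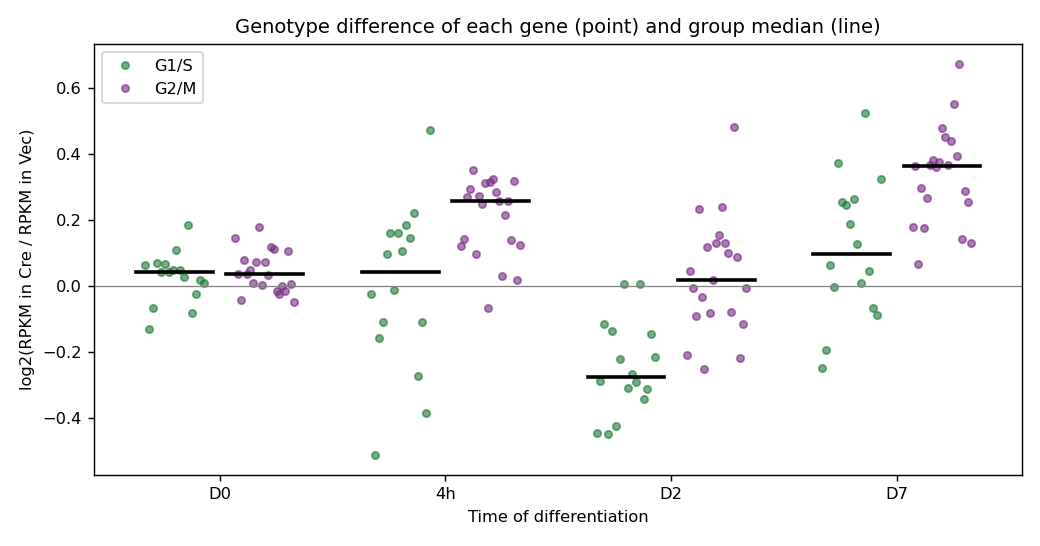
Log2 of the RPKM ratio of Cre over Vec for each G1/S gene (16) and G2/M gene (21) at D0, 4h, D2 and D7; points are genes and lines are group medians. All 21 G2/M genes are above 0 at D7 and 14 of 16 G1/S genes are below 0 at D2, and no gene reaches 1 or -1.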

How the data were processed

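RNA-seq tables of 8 libraries were used, and 22 ChIP and input samples were not. The authors deposited a read count and an RPKM value per RefSeq transcript, per the file headers. The submitters' processing notes list mm9, CASAVA 1.8.2 and SICER. The sources used here do not name the RNA aligner or counter. Of 29082 transcripts 28432 (97.8%) matched a symbol in a RefSeq table of GRCm38.p6, used for names and promoters only, and the transcript with most reads stood for its gene. Counts of the 12581 genes that reached an RPKM of 1 in 2 or more libraries were fitted with edgeR 4.0.16 (R 4.3.3) by quasi-likelihood, as time plus genotype with TMM scaling and Benjamini-Hochberg adjustment over all genes at 0.05. The model leaves 3 residual degrees of freedom. Log2 changes and SE come from it, and levels are the deposited RPKM. The procedure was also run on simulated counts that held no difference between genotypes, so that run cannot vouch for the p-values here. Alternatives were median-of-ratios scaling, no filter or an RPKM of at least 5, limma 3.58.1 on log2(RPKM + 1), with 0.1 or 5 in place of 1, DESeq2 1.42.0, the transcript with the highest RPKM, and leaving out each library. Members and lists were chosen with earlier results of these data known. Every member is named; of the other lists, at most the 2 largest rises and falls past the threshold.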

Additional observations from a re-analysis of the deposited data

Results flagged for a closer look

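Of 210 comparisons between 2 times (42 genes in 5 comparisons), 15 moved in opposite directions in Cre and Vec, with the 95% counting intervals of both ratios away from 1. The difference was not tested, as each group is 1 library. The share of all genes that meet this rule was not computed, so the counts do not show that these genes stand out. The values are the log2 RPKM ratio in Cre minus that in Vec. At 4h against D0 they were -0.40 for Rrm2 (-0.24 in Cre and 0.17 in Vec), -0.44 for Ccnd3 (-0.17 in Cre and 0.27 in Vec) and 0.67 for Cdkn1b (0.49 in Cre and -0.18 in Vec). At D2 against D0 they were -0.51 for Ccne1, -0.32 for Mcm7 and 0.17 for Ccnd2. At D2 against 4h they were -0.59 for Mcm2 and -0.45 for Mcm6. At D7 against D2, the time step with 7 of the 15, they were 0.68 for Mcm2, 0.47 for Mcm3, 0.58 for Mcm5, 0.44 for Cdt1, 0.35 for Cenpa, 0.47 for Kif20a and -0.77 for Cdkn2c. With TMM scaling 13 of the 15 were still opposite in sign, all but Mcm6 at D2 against 4h and Cdt1 at D7 against D2. The intervals were not applied again after scaling. Some of the 13 then had a Vec log2 ratio near 0: Cdkn1b at 4h against D0 (-0.03) and Mcm2 at D2 against 4h (0.04). At D7 against D2 so did Mcm3 (-0.04) and Cenpa (-0.04). G1/S genes made up 9 of the 15, and 4 of the 7 at the last step, where the ratio was above 1 in Cre and below 1 in Vec for each of these 4. Cdkn2c differed the other way, with 50.4 RPKM in Cre D7 and 83.4 in Vec D7, after 58.8 in Cre D2 and 57.2 in Vec D2.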

How the results depend on the processing

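The G2/M fall at 4h kept its direction and a like count under each of the 8 alternatives that keep all libraries. G1/S genes that fell at 4h numbered 2 with the RPKM minimum of 5, 2 with limma on log2(RPKM + 1), 4 with limma on log2(RPKM + 5) and 1 with DESeq2, against 0. At D2 against D0, 3 G1/S genes fell with no filter and with each limma fit, against 5. At D7 against D0, the G2/M genes that fell numbered 5 with median-of-ratios scaling, no filter or limma on log2(RPKM + 1), 11 with limma on log2(RPKM + 5) and 12 with DESeq2, against 3. At D2 against 4h, 3 G1/S genes fell with each limma fit, against 6, and 13 G2/M genes rose with limma on log2(RPKM + 5), against 7. At D7 against D2, with no filter and with each limma fit 0 genes rose in either group, against 1 each. There 1 G1/S gene fell with limma on log2(RPKM + 5), against 0, and 2 G2/M genes with limma on log2(RPKM + 1) or log2(RPKM + 5) and with DESeq2, against 1. The G2/M median minus the G1/S median was -0.68 with limma on log2(RPKM + 5) at 4h against D0, and -0.87 as reported; it was 0.43 at D2 against 4h, and 0.62 as reported. The causes were not tested.

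Leaving out each library in turn gave, at 4h against D0, 0 to 3 G1/S rises, 0 to 1 G1/S falls, 0 to 19 G2/M falls and a difference of medians between -0.96 and -0.67. At D2 against D0 it gave 0 to 6 G1/S falls, 2 to 14 G2/M falls and a difference between -0.29 and -0.00250, smallest without Vec D0. At D7 against D0 it gave 0 to 6 G2/M falls. At D2 against 4h it gave 2 to 6 G1/S falls, 0 to 10 G2/M rises and a difference between 0.57 and 0.77. At D7 against D2 it gave 0 rises in either group, 0 to 1 G2/M falls and a difference between -0.13 and 0.0553. That difference, -0.03 as reported, turned to 0.0553 without Cre D2. Of single-gene results, 1426 of 1680 stayed on the same side of the threshold when a library was left out and 236 lost the call. Under the other alternatives 1570 of 1670 stayed on the same side. Direction was compared only for results that were called, and the 1680 and 1670 include those that were not. Counts over all genes ranged more widely: at D7 against D0 714 genes rose (396 to 1246 under the alternatives that keep all libraries) and 304 fell (151 to 857), and Cre and Vec differed 2-fold for 52 genes at D0 (4 to 89), 504 at 4h (195 to 811), 487 at D2 (164 to 847) and 562 at D7 (209 to 1010).

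The fit already compares times within genotype through its genotype term, and the labels give no replicate numbers to use as a further block. Depth was lowest in the 4h libraries, and the lowest member count there was 96 reads of Mybl2 in Cre 4h. The fit has 3 residual degrees of freedom and counts responses that differ between genotypes as error.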
